A study of Mus musculus with 4 samples.

Results

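Ep300, Crebbp, Mecom, Prdm16 and Brd2 are 5 listed coregulator genes out of 21938 protein-coding genes of the GENCODE M21 basic annotation on the mouse autosomes and sex chromosomes. Peaks of RNA polymerase II (Pol II) ChIP-seq, a map of where the enzyme that transcribes genes is bound to chromatin, were assigned to each gene by position alone. A promoter peak overlaps the 1500 bp on either side of any transcription start site (TSS) of the gene in the mm10 genome. A gene body peak overlaps the rest of the gene, and a flanking peak lies within 50 kb of it. All 5 genes were found in the annotation. The libraries came from brain endothelial cells (ECs), 2 from old WT Cre mice and 2 from young EC-K4KO mice. Mice of both groups carry a tamoxifen-inducible Cre recombinase driven by the promoter of Cdh5, the VE-cadherin gene, which is active in ECs of all vascular beds. EC-K4KO mice in addition carry floxed Klf4, so that the endothelial transcription factor KLF4 is deleted in ECs once Cre is induced. Cre was induced at 8 wk of age with 5 days of tamoxifen, the young cohort was 4 to 6 mo and the old cohort 20 to 23 mo old, and each library was made from 200000 flow-sorted cells. Genotype and age differ together between the groups and cannot be told apart. The sources used here do not say whether a library is 1 animal or a pool, so every p below measures only the spread between these libraries, which may be technical.

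The libraries are called O1 and O2 (old WT Cre, replicates 1 and 2) and Y1 and Y2 (young EC-K4KO, replicates 1 and 2), and values for 4 libraries are given in that order. They held 65734178, 27455452, 35227929 and 22705175 fragments. Y2 stood apart: it had the fewest fragments and 235591 peaks, against 35638 to 78851 in the other 3 libraries. The smallest pileup that was called a peak was 7 to 13 fragments. Promoter peaks were found at 25.6%, 24.5%, 10.6% and 67.5% of all protein-coding genes. Among 8 endothelial markers, 3, 4, 0 and 5 had one, a higher share than all genes in the old libraries and a lower share in the young libraries, and Pecam1, Tek and Slco1a4 had none in any library. These shares of few genes were not tested, and they did not distinguish O1, Y1 or Y2 as endothelial. In O1, 3 of 8 endothelial, 2 of 5 microglia and 2 of 5 astrocyte markers had a promoter peak. The 5 marker lists of 5 genes each for mural cells, microglia, astrocytes, neurons and oligodendrocytes each had 0 to 2 genes with a promoter peak in the first 3 libraries and 3 or 4 in Y2. Klf4, the deleted gene, had no promoter peak in either old library and pileups of 0.426 and 0.881 FPM in the young libraries (FPM, fragments at the summit per 1000000 fragments of the library). Which part of Klf4 the floxed allele removes is not given in the sources used here, so these peaks are no check of the deletion.

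p300 and its paralog CBP, encoded by Ep300 and Crebbp, are histone acetyltransferases that many transcription factors recruit to enhancers and promoters. Brd2 belongs to the BET family, whose bromodomains bind acetylated lysines in histones and couple acetylation to transcription by Pol II. MECOM and PRDM16 are related zinc finger proteins of the PRDM family that work with corepressors and coactivators. In endothelium MECOM is known for arterial identity, and PRDM16 is known as an arterial endothelial regulator and as the switch for brown fat.

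Promoter peaks were found at 4 of the 5 genes in O1, at 2 in O2, at 2 in Y1 and at 5 in Y2. The shares of all protein-coding genes in the same libraries were 25.6%, 24.5%, 10.6% and 67.5%. Both old libraries had a promoter peak at Ep300 and Brd2, so at 2 of 5 genes against 10.1% of all genes. Both young libraries had one at Ep300 and Crebbp, again 2 of 5, against 9.11% of all genes. Ep300 was the single member with a promoter peak in all 4 libraries, which 2.22% of all genes had. That did not hold under narrower settings: Ep300 kept a promoter peak in 3 libraries with a TSS window of 500 bp, in 2 with a fold enrichment of at least 4 or with peak lists of equal length, and in 1 with q of at most 1e-05. With 5 genes these counts are a description and were not tested. With Y1 left out, the young count is that of Y2 alone, 5, against 67.5% of all genes. With O2 left out, the old count is that of O1 alone, 4, against 25.6%.

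**Figure D1:**
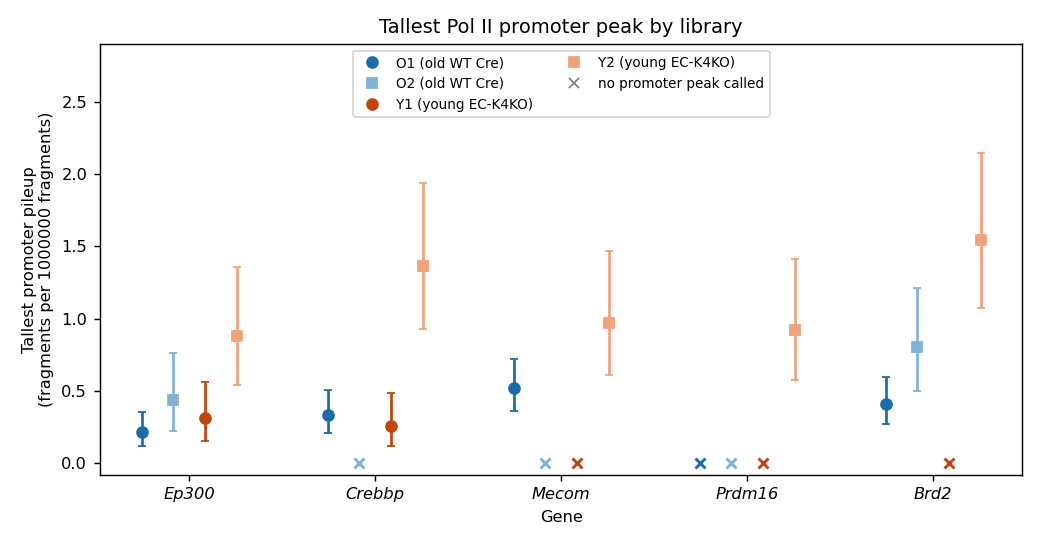
Pileup of the tallest Pol II promoter peak of each gene, in FPM, one symbol per library; bars are 95% Poisson intervals of the pileup, which cover counting error only, and crosses at 0 mark genes with no promoter peak. Ep300 has a symbol in every library, from 0.213 to 0.881, while Prdm16 has one in Y2 alone.

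Ep300 (ENSMUSG00000055024.12, chr15:81585351-81652077, plus strand) encodes p300 and has 1 annotated TSS. Its tallest promoter peak reached 14 fragments in O1, 12 in O2, 11 in Y1 and 20 in Y2. In FPM these pileups were 0.213, 0.437, 0.312 and 0.881. The smallest pileup called was 13, 8 and 9 fragments in the first 3 libraries, so that the O1 peak was 1 fragment and the Y1 peak 2 fragments above it, while the O2 peak was 1 fragment below the median of genes with a promoter peak, 13 fragments. Among genes with a promoter peak in the same library, Ep300 stood at the percentiles 0.338, 24.1, 7.25 and 52.4. Fold enrichment over the local background of the library was 2.82, 4.83, 3.82 and 5.03. The mean pileup was 0.325 ± 0.158 FPM in the old group and 0.597 ± 0.402 in the young group (SD, n = 2 each). The groups overlapped, and the difference of 0.272 did not pass an exact permutation test (two-sided p = 0.667, where 2 against 2 libraries allow no p below 0.333). The difference was -0.0128 FPM without Y2 and -0.0624 FPM with peak lists of equal length.

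The 4 libraries did not share one position at the Ep300 promoter. The peaks of both old libraries lay in the first exon with summits 495 bp (O1) and 163 bp (O2) downstream of the TSS and shared no base with each other. The first of 2 promoter peaks in Y2 (chr15:81585403-81585974, 0.793 FPM), with its summit 115 bp downstream of the TSS, covered both of them. The peak of Y1 lay 1058 bp downstream of the TSS, still in the first exon, where it shared 116 bp with the second promoter peak of Y2. RefSeq places the start of Ep300 further downstream, so that the Y1 summit lies 241 bp after the RefSeq start. The TSS of 1110025M09Rik and Gm23880 lie within 1500 bp of these summits, and unstranded ChIP fragments cannot be assigned to one of these genes.

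Inside Ep300, peaks lay mainly in coding exons. The gene body held 2, 2, 3 and 4 peaks. Of these 11 peaks, 9 had the summit in a coding exon, where 11.0% of the bases are coding. Over all protein-coding genes, 9.95% of body peaks had the summit in a coding exon, against 2.91% of bases. The last exon, exon 31 of 31, held 5 of the 11 peaks, and 3 libraries had a peak at one place there (chr15:81650639-81650941), 140 bp before the end of the coding sequence. Pileup at that place was 0.437, 0.397 and 0.661 FPM in O2, Y1 and Y2, and O1 had no peak there. None of 11 sampled 50-base pieces of it had another exact copy in the genome. The stretch common to the 3 peaks (GRCm38 chr15:81650662-81650903, plus strand, 242 bp) is shown as the most widely shared Ep300 sequence, and it holds none of the 4 motifs searched, those of KLF, GATA, ETS and CREB factors, so it has no capitals.
Ep300 exon 31 common stretch: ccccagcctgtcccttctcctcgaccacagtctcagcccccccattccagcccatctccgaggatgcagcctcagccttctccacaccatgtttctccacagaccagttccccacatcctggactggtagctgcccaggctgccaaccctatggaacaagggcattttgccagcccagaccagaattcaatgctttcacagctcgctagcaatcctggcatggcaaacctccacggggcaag

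In density, the Ep300 body held 3.07 peaks per 100 kb in both old libraries and 4.60 and 6.14 in the young libraries. The groups did not overlap, which was true in this direction for 4.23% of all protein-coding genes, and the group means of 3.07 and 5.37 ± 1.08 peaks per 100 kb (SD, n = 2 each, with no spread in the old group) gave the smallest p the design allows (two-sided exact permutation test, p = 0.333, adjusted p = 0.833 over the 5 genes). The groups were 1 or 2 peaks apart. They overlapped, with a smaller difference of 0.767 peaks per 100 kb and p = 1 in the exact permutation test, once peaks were limited to a fold enrichment of at least 4, to q of at most 1e-05 or to lists of equal length. Bodies of all protein-coding genes held 3.36, 1.55, 1.24 and 9.82 peaks per 100 kb, so that Ep300 was above that level in O2 and Y1 and below it in the other libraries. Flanking peaks numbered 2, 1, 1 and 9.

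Crebbp (ENSMUSG00000022521.10, chr16:4081328-4213997, minus strand) encodes CBP and has 2 annotated TSS. Its tallest promoter peak reached 22 fragments in O1, 9 in Y1 and 31 in Y2, and O2 had none. The pileups were 0.335, 0.255 and 1.37 FPM. In Y1 the peak had the smallest pileup called in that library, with a 95% Poisson interval from 0.117 to 0.485 FPM. In Y2 it stood at the percentile 92.0 of genes with a promoter peak and had a fold enrichment of 11.9, the highest among the promoter peaks of the 5 genes. Taking a missing peak as 0, the means were 0.167 ± 0.237 and 0.810 ± 0.785 FPM (SD, n = 2 each). These groups overlapped as well (exact permutation test, p = 0.667). Without Y2 the difference shrank from 0.643 to 0.0881 FPM.

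Positions at the Crebbp promoter differed between libraries. Both young libraries had a peak in the first intron, with summits 329 and 426 bp downstream of the nearest TSS and 155 bp in common. O1 had its peak upstream of the gene instead, 219 bp before the first TSS, and 60 bp of it were shared with a smaller peak of Y2. The intronic stretch (GRCm38 chr16:4212958-4213112) and the upstream stretch (chr16:4214256-4214315) are printed on the minus strand because they are the places at this promoter where the peaks of different libraries coincide. Neither holds a motif searched, and their GC contents are 69.0% and 68.3%.
Crebbp intron 1 common stretch: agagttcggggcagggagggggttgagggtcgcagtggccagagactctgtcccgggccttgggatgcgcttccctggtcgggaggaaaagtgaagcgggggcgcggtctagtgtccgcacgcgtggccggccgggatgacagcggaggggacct
Crebbp upstream common stretch: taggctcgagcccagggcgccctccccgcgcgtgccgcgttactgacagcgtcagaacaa

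The Crebbp body held few peaks: 1, 0 and 1 in the first 3 libraries and 8 in Y2. Summits of 3 of these 10 peaks lay in coding exons, all 3 in the last, exon 31 of 31, as did 5 body peaks of the paralog Ep300. Of these 3 Crebbp peaks, 2 were from Y2. The last exon has 4871 bp where the body outside promoters has 130585 bp at Crebbp, and 3276 and 65180 bp at Ep300. The share of peaks in last exons over all genes was not measured. O1 and Y2 overlapped there (chr16:4085094-4085501), with pileups of 0.472 and 0.837 FPM and summits 22 bp apart. The 184 bp they have in common (chr16:4085195-4085378, minus strand) are shown because, as at Ep300, different libraries coincided in the last exon, here 1175 bp before the end of the coding sequence, with the letters CACCC, a core bound by KLF and Sp factors, in capitals.
Crebbp exon 31 common stretch: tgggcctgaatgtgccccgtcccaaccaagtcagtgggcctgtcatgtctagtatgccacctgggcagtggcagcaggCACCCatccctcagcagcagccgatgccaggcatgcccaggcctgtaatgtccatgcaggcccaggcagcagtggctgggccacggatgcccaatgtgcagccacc
Body density was 0.766, 0, 0.766 and 6.13 peaks per 100 kb. That was below the level of all gene bodies in every library. Flanking peaks numbered 6, 6, 0 and 20, and 2, 2, 0 and 6 of them lay at the TSS of other genes. Neither measure separated the groups (exact permutation tests, p = 0.667 and p = 1).

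**Figure D2:**
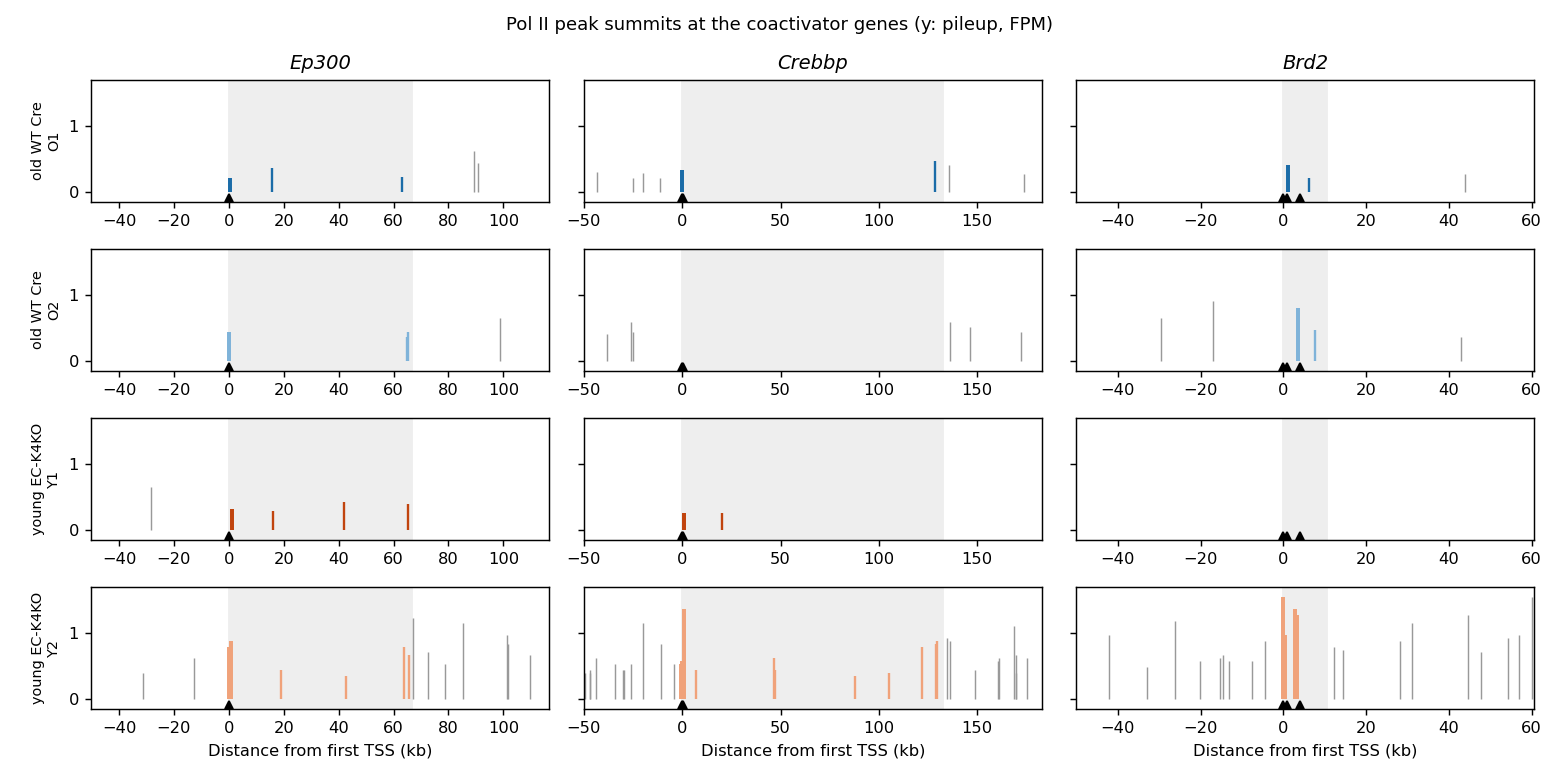
Summits of Pol II peaks at Ep300, Crebbp and Brd2 by distance from the first TSS in kb, in the direction of transcription, one row per library; line height is pileup in FPM, grey shading is the gene, grey lines are flanking peaks, thick lines promoter peaks and triangles annotated TSS. The first 3 libraries show at most 3 body peaks per gene, and Brd2 has no line in Y1.

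Mecom (ENSMUSG00000027684.16, chr3:29951296-30548008, minus strand) spans 597 kb and has 6 annotated TSS. Transcripts from the far upstream TSS encode the long MDS1-EVI1 form with a PR domain, and transcripts from the downstream TSS encode the EVI1 form. Promoter peaks were found in O1, with a tallest pileup of 34 fragments or 0.517 FPM, and in Y2, with 22 fragments or 0.969 FPM. O2 and Y1 had none, so 1 library of each group had a peak and 1 did not. The pileup stood at the percentile 96.4 of genes with a promoter peak in O1 and at 63.4 in Y2. Both libraries had this peak at the downstream TSS, with summits 39 and 57 bp into the transcript and 226 bp in common. Mecomos, an antisense transcript, overlaps it, and its reads cannot be told apart from those of Mecom here. At the upstream TSS the closest peak was seen in Y2 alone, in the first intron 1340 bp downstream of that TSS, with 0.529 FPM. Means were 0.259 ± 0.366 in the old group and 0.484 ± 0.685 in the young group (SD, n = 2 each), with p = 1 in the exact permutation test. The difference of 0.226 turned to -0.259 without Y2 and to -0.0328 without O2, and as a percentile among all genes it was -11.9.

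The Mecom body held 15, 7, 4 and 55 peaks. Nearly all summits lay in introns, 78 of 81, and 3 in coding exons. These 3 are 3.70% of the body peaks, where 0.557% of the body bases are coding. Merging overlapping peaks over the whole gene, promoter peaks included, gave 75 regions, of which 68 had a peak in 1 library, 5 in 2 libraries and 2 in all 4. Mecom was thus one of 3.10% of protein-coding genes with a region within the gene that all 4 libraries had called. Among the 567 genes of at least 300 kb the share was 26.3%, and 29 of them had 2 or more such regions, as Mecom did. Whether gene length accounts for the regions in Mecom was not tested.

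Those 2 regions, both in the first intron of the long transcript, differed in sequence. At chr3:30385175-30385917, which lies 124334 bp downstream of the upstream TSS, pileup was 0.259 and 0.692 FPM in the old libraries and 0.397 and 0.661 in the young libraries. The groups overlapped. All 4 peaks covered the same 199 bp, none of them repeat-masked, and 1 of 28 sampled 50-base pieces of the region had another exact copy. At chr3:30030259-30031564, which lies at -17541 bp (upstream) from the nearest TSS and inside Mecomos, pileup was 0.335 and 0.765 in the old group and 0.312 and 1.06 in the young group. No base of this region was in all 4 peaks, and the summits were spread over 823 bp. Repeats made up 97.4% of it, and 49 of 51 sampled pieces had another exact copy in the genome, with up to 1279 copies of a piece. Whether fragments there came from other copies was not tested. The shared 199 bp (GRCm38 chr3:30385238-30385436) are printed on the minus strand, since they are the only Mecom bases inside a peak of every library, and they hold none of the 4 motifs.
Mecom intron 1 common stretch: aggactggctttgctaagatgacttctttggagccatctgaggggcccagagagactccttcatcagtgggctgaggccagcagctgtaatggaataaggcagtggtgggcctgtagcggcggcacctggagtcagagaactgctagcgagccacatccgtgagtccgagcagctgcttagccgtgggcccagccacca

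Mecom body density was 2.58, 1.20, 0.688 and 9.46 peaks per 100 kb, below the density of all gene bodies in each library. The groups overlapped (exact permutation test, p = 1), and the difference of 3.18 peaks per 100 kb turned to -1.20 without Y2 and to -0.430 with peak lists of equal length. Flanking peaks numbered 3, 4, 0 and 4. One flanking place upstream of Mecom (chr3:30595180-30595757) had a peak in 3 libraries, with 0.274, 0.473 and 0.969 FPM in O1, O2 and Y2. It lies at the TSS of another gene, 1600017P15Rik.

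**Figure D3:**
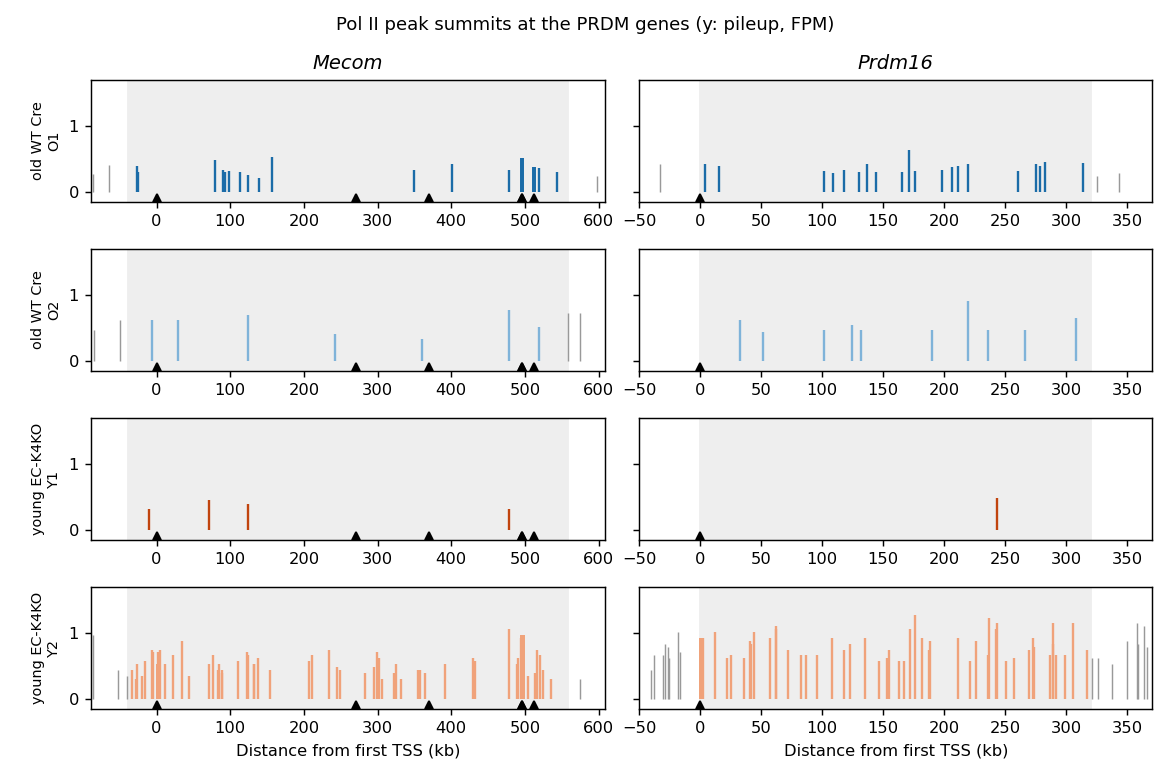
Summits of Pol II peaks at Mecom and Prdm16 by distance from the first TSS in kb, in the direction of transcription, one row per library; line height is pileup in FPM, with shading, line widths and triangles for the gene, the peak classes and the TSS. Y1 shows 4 body peaks in Mecom and 1 in Prdm16, and Y2 shows 55 and 48.

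Prdm16 (ENSMUSG00000039410.16, chr4:154316125-154636873, minus strand) spans 321 kb, and its annotated transcripts share 1 TSS. No promoter peak was called in 3 of the 4 libraries. Y2 had one of 21 fragments, or 0.925 FPM, with a fold enrichment of 3.03. No promoter peak of Prdm16 was left in any library with a TSS window of 500 bp, a fold enrichment of at least 4, q of at most 1e-05 or lists of equal length. With the TSS of all GENCODE transcripts, an alternative chosen after seeing the data, O1 gained one of 0.289 FPM and the tallest of Y2 became 1.15 FPM. The summit of the Y2 peak lay 1022 bp downstream of the TSS in the first intron, and in that library 67.5% of all protein-coding genes had a promoter peak. The means were 0 in the old group and 0.462 ± 0.654 in the young group (SD, n = 2), with p = 1 in the exact permutation test. Where no peak was called, binding below the calling threshold of the library was not detectable. This stretch (GRCm38 chr4:154635726-154635946, minus strand, 73.3% GC) is printed as the only Pol II peak within 1500 bp of the Prdm16 TSS, with CACCC in capitals.
Prdm16 intron 1 peak: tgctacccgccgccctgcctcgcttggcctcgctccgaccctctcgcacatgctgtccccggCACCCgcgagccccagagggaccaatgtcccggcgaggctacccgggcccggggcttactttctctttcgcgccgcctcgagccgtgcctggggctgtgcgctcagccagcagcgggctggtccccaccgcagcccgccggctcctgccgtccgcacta

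Within Prdm16 the young libraries differed from each other more than from the old libraries. The body held 20 and 10 peaks in the old group and 1 and 48 in the young group, or 6.26, 3.13, 0.313 and 15.0 peaks per 100 kb. Against all gene bodies of the same library this density was 1.87, 2.02, 0.252 and 1.53 times as high, so it exceeded the level of all genes in 3 libraries and was below it in Y1. The groups overlapped (exact permutation test, p = 1). The difference of 2.98 peaks per 100 kb turned to -4.39 without Y2 and to -1.72 with peak lists of equal length, where both old libraries were above both young libraries (exact permutation test, p = 0.333). Few places recurred: of 75 regions merged over the whole gene, the promoter peak included, 70 had a peak in 1 library, 5 in 2 libraries and none in 3 or 4. Both old libraries overlapped at 2 places in introns (chr4:154417406-154417702 and chr4:154535200-154535648), and both are entirely repeat-masked. The young libraries overlapped at 1 place in the third intron (chr4:154393155-154393660), with 0.483 and 1.15 FPM and no repeat-masked base. Flanking peaks numbered 3, 0, 0 and 16.

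Brd2 (ENSMUSG00000024335.20, chr17:34112023-34122634, minus strand) is the shortest of the 5 genes at 10.6 kb and has 3 annotated TSS. Its tallest promoter peak reached 27 and 22 fragments in the old libraries, or 0.411 and 0.801 FPM. Y1 had no promoter peak, and Y2 had 4, the tallest with 35 fragments or 1.54 FPM. In each library with a peak Brd2 ranked high, at the percentiles 82.1, 96.6 and 96.3 of genes with a promoter peak. Means were 0.606 ± 0.276 and 0.771 ± 1.09 FPM (SD, n = 2 each). The groups overlapped (exact permutation test, p = 1), and the direction depended on the libraries and on the scale: the difference of 0.165 turned to -0.606 without Y2 and to -0.0305 without O1. With all 4 libraries it was -2.41 in fold enrichment and -48.5 as a percentile among all genes. Both old libraries had a peak at this promoter, but not at the same place. O2 and Y2 shared 182 bp in an untranslated exon, while the peak of O1 lay in an intron 296 bp downstream of another TSS. The annotation of H2-DMa, a gene on the opposite strand, overlaps or adjoins all these places, and fragments cannot be assigned to one of the genes.

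Outside the promoter windows 5223 bp of Brd2 remain, and they held 1 peak in each old library and none in either young library. These groups did not overlap either, with a mean difference of -19.1 peaks per 100 kb and the smallest p the design allows (exact permutation test, p = 0.333, adjusted p = 0.833). In this direction 0.593% of all protein-coding genes were apart. The groups overlapped (exact permutation test, p = 1) in 5 of the alternatives: the difference was -6.08 with a TSS window of 500 bp, -14.4 with one of 3000 bp, -9.57 with a fold enrichment of at least 4 or lists of equal length, and 0 with q of at most 1e-05, where no peak was left. The 2 peaks had 14 and 13 fragments, where the smallest pileups called were 13 and 8, and lay at different places. Flanking peaks numbered 1, 3, 0 and 18, and the Y2 count included 10 at the TSS of other genes.

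**Figure D4:**
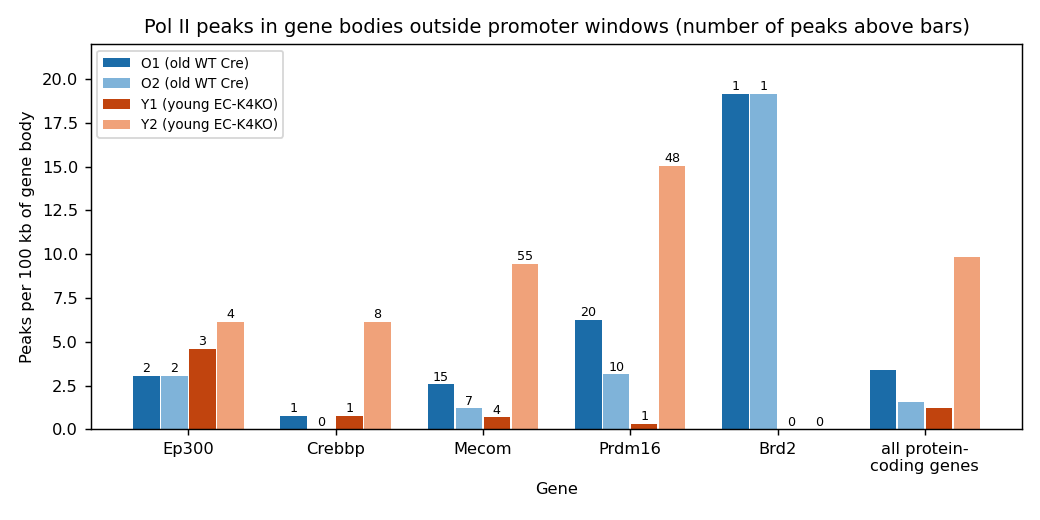
Pol II peaks per 100 kb of gene body outside promoter windows, one bar per library, for the 5 genes and for all protein-coding genes together, with the number of peaks above each bar of a gene. The Brd2 bars of 19.1 stand for 1 peak each, and Mecom and Prdm16 have their lowest bars in Y1 and their highest in Y2, as all genes together do.

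Set side by side, gene bodies held a peak at 5, 4, 4 and 4 of the 5 genes, against 46.7%, 32.9%, 26.0% and 68.8% of all protein-coding genes. These shares were not matched for gene length, and the 5 genes span 10.6 to 597 kb. In peaks per 100 kb, Crebbp and Mecom were below all gene bodies in every library. Ep300, Prdm16 and Brd2 were above that level in some libraries and below it in others. Ep300 and Brd2 were apart between groups in body peaks, in opposite directions, and neither passed adjustment over the 5 genes. For the tallest promoter pileup no member was apart. Young EC-K4KO was higher in both libraries for 5.43% of all genes and old WT Cre for 0.893%. For flanking peaks every exact permutation test gave p = 1. In total 15 comparisons were made, 3 for each gene, and 2 libraries per group could not give a significant p in any of them. No adjusted p was below 0.833.

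Related genes had most promoter peaks in Y2 and fewest in Y1, the same order as all genes at these extremes. Of 53 related genes in 5 lists, 16, 21, 6 and 47 had a promoter peak, or 30.2%, 39.6%, 11.3% and 88.7%, against 25.6%, 24.5%, 10.6% and 67.5% of all protein-coding genes. Their share was thus above that of all genes in O2 and Y2 and nearer to it in O1 and Y1, which was not tested. In both old libraries 7 had one, or 13.2% against 10.1% of all genes. In both young libraries 5 had one, or 9.43% against 9.11%, and in all 4 libraries Cited2 alone, or 1.89% against 2.22%. CITED2, which competes for a domain of p300 and CBP with hypoxia-inducible factors, had pileups of 0.274, 0.546, 0.454 and 1.23 FPM, each above Ep300 in the same library. Among the 11 other histone acetyltransferases, 4, 8, 0 and 11 had a promoter peak. The 10 p300 and CBP binding partners had 4, 3, 1 and 10. P-TEFb is the kinase that releases paused Pol II. The 7 other BET and P-TEFb genes, among them Hexim1, which encodes an inhibitor of P-TEFb, had 2, 3, 2 and 7, and the 12 cofactors of MECOM and PRDM16 had 6, 4, 1 and 10. The 13 other PRDM genes had 0, 3, 2 and 9, and Prdm11, Prdm12 and Prdm13 had none in any library. Of Klf4 and Klf2, Klf2 had peaks in both old libraries and in Y2.

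The promoter patterns closest to the members over the 4 libraries, by Euclidean distance of log2(FPM + 0.1), were Zfp644 (0.154) and Ube2b (0.168) for Ep300 and 4931440F15Rik (0.174) and Krcc1 (0.254) for Crebbp. Mecom was closest to Mcm3ap and Ybey, both at 0.0351. For Brd2 the closest were Trim39 (0.161) and Bod1l (0.186). Prdm16, with 1 promoter peak, was not ranked. Each named gene had promoter peaks in the same libraries as its member, and presence and height of a peak were not examined apart.

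The 4 motifs were searched on both strands. The KLF and Sp factor core CACCC occurs in 57.5% of the 32851 RefSeq mouse promoters of 300 bases (GRCm38), and in 60.7% of the 200-base windows at the middle of regions that all 4 libraries had called on the autosomes. The GATA factor core AGATAA occurs in 11.2% of these promoters. The ETS factor core CCGGAA occurs in 14.9% of them, and the CRE, the site TGACGTCA bound by CREB, in 1.79%. CACCC was found in the RefSeq promoter of Ep300, of Crebbp, of Prdm16 and in all 3 of Brd2, and in neither promoter of Mecom. CCGGAA was found at 1 Brd2 promoter, and the other 2 motifs at none of the 8 promoters. The Crebbp promoter had the highest GC content of the 8, 82.0% against a median of 52.7% for all promoters. No Pol II peak overlapped the RefSeq promoter window of Crebbp, of Prdm16, of the long Mecom transcript or of 1 of the 3 Brd2 starts (chr17:34121698-34121997) in any library.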

How the data were processed

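The data are Pol II ChIP-seq peak lists of flow-sorted mouse brain ECs. The authors trimmed reads, aligned them with Bowtie2 to mm10 and removed duplicates. They called peaks for each library alone with MACS (2.2.7.1 in the deposited headers) and without a control. Each deposited peak has a pileup (coverage signal in fragments), a fold enrichment (ratio to local background), and −log10 p-values and q-values. The narrow peak and summit lists, which repeat these peaks, were not used.

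Peaks were assigned to GENCODE M21 basic transcripts on GRCm38 using Python 3.11.15 (numpy 2.4.6, pandas 2.3.3, scipy 1.17.1 and pysam 0.24.0). Pileup was divided by the header's fragment count, and a gene with no peak was set to 0. The tallest peak of a library had a pileup of 14.6%, 15.3%, 3.36% and 1.73% of that count in O1, O2, Y1 and Y2. It therefore enlarged the divisor more in the old libraries. Without it, promoter differences were 0.227, 0.631, 0.190, 0.471 and 0.0709 FPM for Ep300, Crebbp, Mecom, Prdm16 and Brd2. With it they were 0.272, 0.643, 0.226, 0.462 and 0.165 FPM. Depth and background of each library set which peaks could be called, so a missing peak is not missing binding. Regions are peaks that overlap by at least 1 bp. Labels gave the groups, which were compared by two-sided exact permutation with Benjamini-Hochberg adjustment over the 5 genes. Poisson intervals at 95% cover counting error only. The genes and places named are the 5 members, the 2 genes nearest to each by promoter pattern, places with peaks in 3 or more libraries, and list genes with a promoter peak in all 4 libraries or none. Places shared by 2 libraries, exons, and the values of Klf4 and Klf2 were chosen after their values were seen. Members and lists were chosen with earlier results of these data known. On a simulated list, 200 of 200 promoter peaks planted inside the TSS windows were recovered. Promoter counts equalled a brute-force count at all 21938 genes. Both checks cover only the step that assigns peaks to genes. Alternatives were other TSS windows and flanks, stricter peak filters, lists of equal length, other scales, a replicate block, leaving out each library, and, chosen after seeing the data, all GENCODE transcripts.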

Additional observations from a re-analysis of the deposited data

How the results depend on the processing

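Some promoter peaks, such as those of Ep300 in O1 and Crebbp in Y1, lay at or near the smallest pileup called, and 2 libraries per group allowed no p below 0.333 under any setting. Of the differences between groups (young EC-K4KO minus old WT Cre), those in promoter pileup changed direction for Brd2 on the fold enrichment scale (-2.41) and as a percentile (-48.5), for Mecom as a percentile (-11.9) and for Ep300 with lists of equal length (-0.0624). With lists of equal length the body difference became -0.430 peaks per 100 kb for Mecom and -1.72 for Prdm16, and the flanking difference -1 for Crebbp and -0.5 for Prdm16. The flanking difference of Mecom was 0.5 with a flank of 100 kb. The number of members with a promoter peak in both old libraries was 1 with a TSS window of 500 bp, a fold enrichment of at least 4, lists of equal length or q of at most 1e-05. For both young libraries it was 1, 0, 1 and 0 under the same settings. The groups no longer stood apart in body peaks at Ep300 (0.767) with a fold enrichment of at least 4, q of at most 1e-05 or lists of equal length, or at Brd2 under these settings (-9.57, 0 and -9.57) and with TSS windows of 500 bp (-6.08) or 3000 bp (-14.4). They came to stand apart at Prdm16 in body peaks with lists of equal length, and at Crebbp in body peaks per fragment and in promoter pileup as a percentile. The Prdm16 promoter peak was lost with a TSS window of 500 bp, both stricter filters and lists of equal length. The causes were not tested, beyond stricter lists holding fewer peaks.

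Leaving out 1 library at a time gave counts of 2 to 4 (old WT Cre) and 2 to 5 (young EC-K4KO), which are the counts of the library that was left. The promoter difference then ran from -0.0128 to 0.556 FPM for Ep300, 0.0881 to 1.20 for Crebbp, -0.259 to 0.710 for Mecom, 0 to 0.925 for Prdm16 and -0.606 to 0.935 for Brd2. The body difference ran from 1.53 to 3.07 peaks per 100 kb for Ep300, 0.383 to 5.74 for Crebbp, -1.20 to 7.57 for Mecom and -4.39 to 10.3 for Prdm16, and was -19.1 for Brd2 each time, unlike under the filters and windows above. The flanking difference ran from -0.5 to 7.5 for Ep300, -6 to 14 for Crebbp, -3.5 to 0.5 for Mecom, -1.5 to 14.5 for Prdm16 and -2 to 16 for Brd2. The changes of direction came from leaving out Y2, except at the Brd2 promoter without O1 (-0.0305), the Mecom promoter without O2 (-0.0328) and the Mecom flank without Y1 (0.5). A replicate block left each difference as it was (0.272 FPM at the Ep300 promoter, p = 0.5 by exact sign flips, the smallest that 2 pairs allow) and changed no call. The correlation of deviations of same-numbered libraries was 0.0555 over 16361 genes. With all GENCODE transcripts, chosen after seeing the data, the counts of members with a promoter peak in both libraries of a group and the directions were the same, but O1 gained a Prdm16 promoter peak (0.289 FPM, 5 of 5 members) and the Ep300 difference became 0.328 FPM.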
